A study of Mus musculus with 9 samples.

Results

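A set of 10 genes that mark or serve type 1 conventional dendritic cells (cDC1) were followed in CD103-positive lung cells before and after culture. They were chosen by symbol and are 10 of the 45535 rows of the table that carry a gene symbol: Xcr1, Clec9a, Tlr3, Ly75, Cadm1, Btla, Cd24a, Wdfy4, Naaa and Septin3. All 10 were among the 18202 genes tested. The samples came from lungs of mice labelled C57/BL6j after 7 days of bleomycin, a drug that injures the lung and is used to model fibrosis. The genotype and bleomycin were shared by every sample. Magnetic beads drew the CD103-positive cells from lungs dissociated by collagenase. RNA came from 5 samples at once (before culture) and from 4 samples kept for 18 h in RPMI medium containing 10% FBS and 1% penicillin and streptomycin (after culture). No lung without bleomycin was analysed here, and the labels do not say how many animals gave a sample, so p-values measure the spread between these samples, which may be technical. Replicates are numbered as in the sample titles.

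The cDC1 is a dendritic cell that takes up dead cells and presents their antigens on MHC class I to CD8 T cells, a route called cross-presentation. In the mouse lung many cDC1 carry CD103, the integrin encoded by Itgae. XCR1 guides the cell toward the chemokine XCL1 made by T cells and NK cells, CLEC9A binds actin filaments exposed on dead cells, TLR3 senses double-stranded RNA in endosomes, and WDFY4 is required by cDC1 to cross-present antigen from cells.

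The labelled cell type was checked against 5 cDC1 markers. Before culture Irf8 had normalized read counts of 15864 to 20697 (median 18915), Batf3 347 to 590 (median 535), Itgae 15948 to 20174 (median 18415), Xcr1 5040 to 7128 (median 5660) and Clec9a 2435 to 3208 (median 2738). A normalized read count is the authors' read count of a gene divided by 1 factor per sample, and 1 read was worth 0.758 to 1.79. After culture Itgae, whose product CD103 the cells were selected by, stood at 1281 to 2034, 10.5-fold lower (log2 fold change −3.41), Irf8 at 8067 to 9016 and Batf3 at 638 to 856. Xcr1 stood at 81.3 to 147 and Clec9a at 289 to 347, and both belong to the 10 genes described. Markers of other cells were read in every sample as well, and the extraction note in the labels speaks of lung RNA rather than of sorted cells. Summed endothelial markers ran from 23513 to 34428 before and 3274 to 4294 after culture. Summed epithelial markers ran from 17860.5 to 35654 before and 2870 to 7229 after culture. Fibroblast markers summed to 15610.5 to 28377 before and 2206 to 4422 after. Markers of type 2 conventional dendritic cells (cDC2) summed to 19651 to 27255.5 before and 16602 to 29714 after culture. Of these 6 markers 1 rose and 4 fell, and those other than Sirpa summed to 8729 to 11494 before and 3928 to 7294 after. The part of these cells in the values of the 10 genes was not tested. Named genes received 14.7 to 28.8 M reads per sample before and 26.0 to 35.3 M after culture. In bulk samples fewer cDC1 and less RNA per cDC1 cannot be told apart.

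The bases before the start of 4 of the genes are shown because they stand for the falls (Xcr1, Clec9a, Naaa) and for the 1 rise (Ly75) described next. Sequences are from a set of RefSeq promoters on GRCm38.p6 that was available here for 7 of the 10 genes. Each reads 5′ to 3′ on the strand of the gene, and stops at the first base that RefSeq or GENCODE M21 places in the gene. Capitals mark CpG dinucleotides, the bases at which mammalian DNA can be methylated, and were chosen for display after the values were seen.
Xcr1 (chr9:123862030-123862279, minus strand): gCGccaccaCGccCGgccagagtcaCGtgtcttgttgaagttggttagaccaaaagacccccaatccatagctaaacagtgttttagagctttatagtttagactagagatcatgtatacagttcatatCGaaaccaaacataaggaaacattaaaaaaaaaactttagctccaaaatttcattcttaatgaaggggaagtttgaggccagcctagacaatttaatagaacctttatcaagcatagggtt
Clec9a (chr6:129408612-129408861, plus strand): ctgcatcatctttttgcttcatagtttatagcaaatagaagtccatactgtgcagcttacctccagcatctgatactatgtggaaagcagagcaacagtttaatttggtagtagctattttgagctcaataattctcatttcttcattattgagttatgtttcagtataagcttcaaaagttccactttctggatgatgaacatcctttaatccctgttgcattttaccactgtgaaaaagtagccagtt
Naaa (chr5:92278182-92278431, minus strand): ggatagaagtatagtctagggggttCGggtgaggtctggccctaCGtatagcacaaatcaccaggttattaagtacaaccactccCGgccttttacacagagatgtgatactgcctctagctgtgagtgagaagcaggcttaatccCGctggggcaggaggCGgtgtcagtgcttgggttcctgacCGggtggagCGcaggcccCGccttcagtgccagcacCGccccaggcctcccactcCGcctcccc
Ly75 (chr2:60383304-60383523, minus strand): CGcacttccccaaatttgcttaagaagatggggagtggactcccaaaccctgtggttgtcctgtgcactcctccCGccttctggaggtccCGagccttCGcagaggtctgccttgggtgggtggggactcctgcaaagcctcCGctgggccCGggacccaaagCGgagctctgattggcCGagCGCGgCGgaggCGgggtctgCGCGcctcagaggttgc

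In the 250 bases before the RefSeq start, Ly75 held 17 CpG and 66.8% GC, Naaa 10 CpG and 59.2% GC, and Clec9a 0 CpG and 35.6% GC. Xcr1 held 5 CpG and 38.8% GC. All of these bases are printed except for Ly75, where 14 of its CpG fall in the stretch shown. Those of the 7 promoters that are not printed were Wdfy4 (5 CpG and 54.4% GC), Tlr3 (6 and 48%) and Btla (4 and 47.2%). Over 32851 mouse promoters in the same RefSeq table the median was 6 CpG (quartiles 2 and 16) and 52.4% GC. The motifs were searched on both strands from 250 bases before to 50 after the start. TGANTCA (AP-1 and BATF) and the interferon-stimulated response element had no match in the 7 promoters, and stand in 7.81% and 3.44% of all promoters. GAGGAA (PU.1) matched in Btla alone among the 7, with matches starting 24 and 18 bases before the start, and stands in 28.3% of all promoters. A match is a description of letters, and a motif without a match says nothing on the factor.

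Of the 10 genes, 9 fell after culture and 1, Ly75, rose, at an adjusted p under 0.05 in limma. Over all 18202 genes tested, 34.6% fell and 34.2% rose by the same rule, and 68.8% did either. The groups did not overlap for any of the 10, with 9 lower and 1 higher, where 28.6% of tested genes were lower and 28.7% higher without overlap (57.3% in all). By size, 7 of the 10 (Septin3, Xcr1, Wdfy4, Tlr3, Naaa, Btla and Clec9a) had a log2 fold change of −3 or less, as had 3.54% of tested genes, and 2.23% of the 5113 tested genes whose mean reached 1000, of which 35.6% fell and 39.4% rose. The median log2 fold change of the 10 was −3.31, and that of all tested genes 0.0065. Standard errors ran from 0.0739 (Cd24a) to 0.163 (Xcr1) and limma adjusted p from 3.64e-14 (Septin3) to 2.29e-09 (Cadm1). Every one of the 10 had at least 64 reads in each sample.

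**Figure D1:**
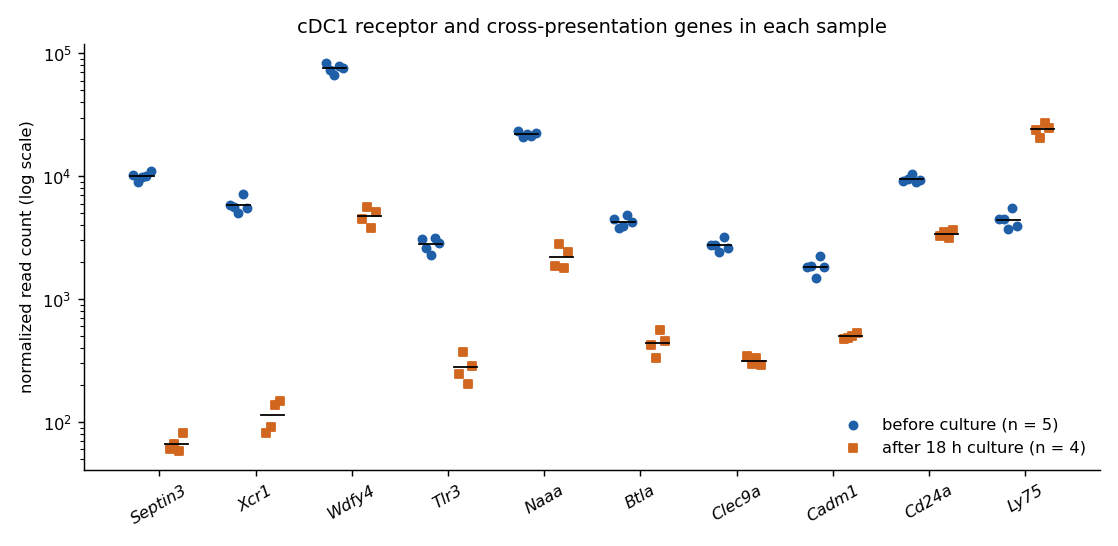
Normalized read counts (log axis) of the 10 genes in each of the 5 samples before culture (circles) and the 4 samples after 18 h of culture (squares), with a line at each group mean. Genes are ordered by log2 fold change, from Septin3 at −7.22 to Ly75 at 2.45, and no gene has overlapping groups.

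The receptors that sense chemokine, dead cells and viral RNA fell together. Xcr1 (chr9:123852315-123862029, build GRCm38 here and below) had normalized counts of 5839, 5660, 5040, 7128 and 5511 in replicates 1 to 5 before culture and 81.3, 91.0, 136 and 147 in replicates 1 to 4 after culture. Its mean went from 5836 ± 781 to 114 ± 32.5 (SD of 5 and of 4 samples). The log2 fold change was −5.70 (95% interval −6.05 to −5.35), the 42nd largest fall of the 18202. Replicates 3 and 4 after culture were above replicates 1 and 2, and each of the 4 was far under the lowest sample before culture.

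Clec9a (chr6:129408862-129424763), the receptor for dead cells, counted 2738, 2779, 2435, 3208 and 2619 before and 347, 295, 329 and 289 after culture. Its log2 fold change was −3.12 (95% interval −3.32 to −2.92). The samples after culture were close to one another, with a coefficient of variation of 8.83% where Xcr1 had 28.6%. Of its annotated exon bases 5.59% are shared with its neighbour Clec1b on the same strand. Clec1b, a lectin of platelets and myeloid cells, was itself higher after culture (134 to 228 before, 265 to 379 after), and reads in the shared bases cannot be told apart.

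Tlr3 (chr8:45395665-45411080) counted 3095, 2618, 2292, 3159 and 2871 before and 247, 371, 205 and 287 after culture, with no overlap. It was 10.1-fold lower, with a log2 fold change of −3.36 (95% interval −3.68 to −3.04). An annotated antisense gene overlaps 7.32% of its exon bases, and that gene, Gm45542, is listed at 0 in every sample.

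Ly75 was the exception among the antigen receptors. It encodes DEC-205, an endocytic lectin-like receptor that carries bound antigen into the cell, and lies at chr2:60292103-60383303. Its counts were 4449, 4517, 3742, 5553 and 3938 before and 23973, 20587, 27177 and 24664 after culture, so that the lowest sample after culture stood well over the highest before. It was 5.43-fold higher, with a log2 fold change of 2.45 (95% interval 2.20 to 2.69), and 3.93% of tested genes were called with a log2 fold change of at least 2. An antisense gene, Gm13571, overlaps 3.61% of its exon bases and counted 116 to 308 before and 572 to 1421 after culture, which is small beside Ly75 itself. Whether the counting used strand is not given in the sources used here.

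The surface molecules that meet T cells and other leukocytes fell by unequal amounts. Btla (chr16:45224315-45257670), an inhibitory receptor of the immunoglobulin family, counted 4474, 3794, 3939, 4822 and 4264 before and 423, 331, 555 and 457 after culture. It was 9.65-fold lower, with a log2 fold change of −3.29. The groups lay far apart, with replicate 2 lowest and replicate 3 highest after culture. Markers of B cells (summed 2741 to 3772) and T cells (5752 to 7829) were also read after culture. The part of such cells in the Btla counts was not tested.

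Cadm1 (chr9:47530173-47857637), an adhesion molecule whose partner CRTAM is carried by activated T cells and NK cells, counted 1820, 1843, 1494, 2236 and 1811 before and 475, 485, 502 and 525 after culture. It was 3.70-fold lower, with a log2 fold change of −1.88. Its 4 samples after culture spread least of the 10 genes in that group, with a coefficient of variation of 4.41%.

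Cd24a (chr10:43578284-43584265), a small glycoprotein anchored in the membrane by lipid, showed the least change. Its counts were 9185, 9481, 10379, 8994 and 9247 before and 3236, 3532, 3121 and 3685 after culture, 2.79-fold lower, with a log2 fold change of −1.48. The groups did not overlap. Cd24a is also made by B cells, neutrophils, red cell precursors and epithelium. Of 8 epithelial markers 6 fell, and of 6 erythroid markers 5 fell, with summed levels of 4243 to 14101 before and 783 to 3975 after culture. The 7 B cell markers summed to 2757 to 5225 before and 2741 to 3772 after culture, with 1 higher and 2 lower. Of 7 neutrophil markers 5 fell and Mmp8, a collagenase, rose from 315 to 553 before to 6093 to 13585 after culture. The other 6 neutrophil markers summed to 8490.5 to 15986 before and 779.8 to 1630.03 after. Of these, Ly6g was too low to be tested, with 1.90 to 11.2 before culture and 0 in all 4 samples after it. The part of these cells in the fall of Cd24a was not tested.

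The genes that work inside the cell included the most abundant and the most reduced of the 10. Wdfy4 (chr14:32959547-33185508), the BEACH domain protein of cross-presentation, counted 83014, 73937, 66190, 78789 and 76653 before and 4501, 5640, 3764 and 5137 after culture. It was 15.9-fold lower, with a log2 fold change of −4.00 (95% interval −4.25 to −3.76). With each sample adjusted for its trend over GC content and transcript length (the GC and length adjustment) the log2 fold change was −3.40, a shift of 1.51 times in fold, while the median of all genes moved to 0.136.

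Naaa (chr5:92257659-92278170), a lysosomal enzyme that breaks down lipid amides such as palmitoylethanolamide, counted 23371, 20747, 21934, 21095 and 22579 before and 1850, 2818, 1782 and 2424 after culture. It was 9.89-fold lower, with a log2 fold change of −3.33. Its spread was narrow before culture (coefficient of variation 4.88%) and wider after it (22.2%).

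Septin3 (chr15:82274893-82294574), a GTP-binding protein of the septin cytoskeleton that is best known from neurons, counted 10183, 8912, 9891, 10100 and 11019 before and 60.1, 66.7, 58.2 and 81.3 after culture. It went from 10021 ± 754 to 66.6 ± 10.5 (SD, n = 5 and n = 4), 150.5-fold lower, with a log2 fold change of −7.22 (95% interval −7.44 to −7.00). This was the 4th largest fall among all genes tested. The samples after culture held 64 to 107 Septin3 reads, against 6156 to 12067 before culture.

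Levels can be set side by side between genes only per length, here as normalized count per kb of the longest protein-coding transcript in GENCODE M21. Before culture the order ran from Naaa (9091 ± 444) through Wdfy4 (7454 ± 618), Cd24a (5208 ± 300), Septin3 (2007 ± 151), Xcr1 (1310.5 ± 175), Btla (1310 ± 127), Clec9a (837 ± 86.9), Ly75 (643 ± 102) and Tlr3 (637 ± 81.2) to Cadm1 (411 ± 58.8), all as mean ± SD of 5 samples. In that order Xcr1 overlapped Btla, Clec9a overlapped Ly75 and Ly75 overlapped Tlr3. After culture Ly75 led (3492 ± 394), followed by Cd24a (1869 ± 143), Naaa (919 ± 204), Wdfy4 (469 ± 79.9), Btla (136 ± 28.5), Cadm1 (111 ± 4.89), Clec9a (95.7 ± 8.45), Tlr3 (63.0 ± 16.0), Xcr1 (25.6 ± 7.31) and Septin3 (13.3 ± 2.10), in 4 samples. There Btla overlapped Cadm1, and the other neighbours did not overlap. Ly75 moved from 8th to 1st and Septin3 from 4th to 10th.

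**Figure D2:**
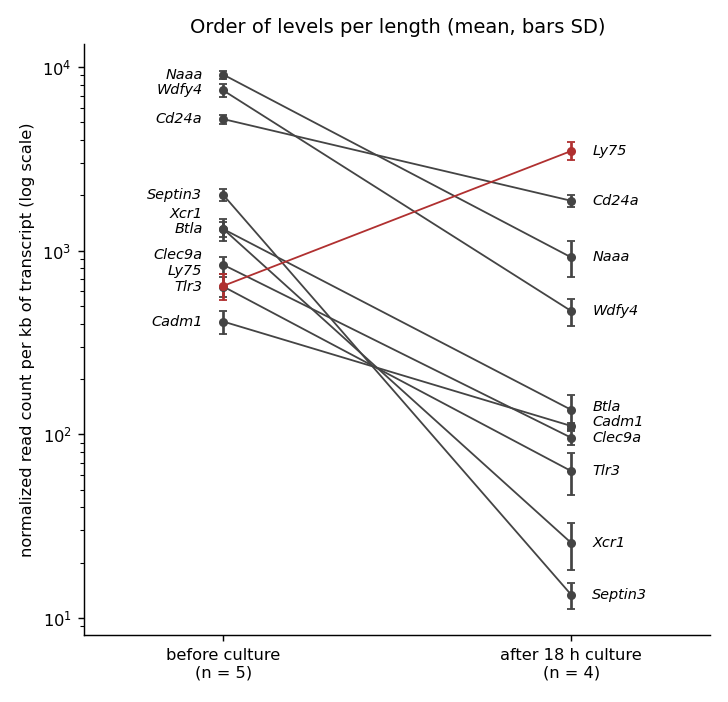
Mean normalized read count per kb of transcript (log axis) of each gene before (n = 5) and after culture (n = 4), with SD bars. The 9 falling lines (grey) cross, with Septin3 going from 4th to 10th, and Ly75 (red) goes from 8th to 1st.

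Whether the genes moved by the same amount was asked with the log2 ratio of each pair within a sample, a measure that scaling between samples changes only through the added 1. Of 45 pairs, 37 had a ratio that differed between the groups (exact two-sided permutation test over the 126 splits of 9 samples, Benjamini-Hochberg adjusted over the pairs, p = 0.0193 for each of the 37, from a raw p of 0.0159, the smallest this design allows). A ratio without overlap between the groups is enough to reach that raw p. The share of all pairs of tested genes that would reach it was not computed, and 57.3% of single tested genes had no overlap. Clec9a, Tlr3, Naaa and Btla formed a group in which all 6 pairs missed the threshold, with changes of the ratio from −0.07 (Tlr3 over Btla, adjusted p = 0.714 in the exact permutation test) to 0.24 (Clec9a over Tlr3, 0.366). Their 95% intervals of the log2 fold change overlapped, from −3.68 at the lowest (Tlr3) to −2.92 at the highest (Clec9a), so equal falls are not shown but no difference was found.

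The other pairs that missed were Wdfy4 over Btla (change −0.72) and Cadm1 over Cd24a (change −0.40), each at an adjusted p of 0.0549 in the exact permutation test. All other pairs differed. Xcr1 fell more than Clec9a by 2.58 on the log2 scale. The log2 ratio of their counts, not divided by length, went from 1.08 before culture to −1.50 after. Per kb, Xcr1 was likewise above Clec9a before culture (1310.5 and 837) and below it after (25.6 and 95.7). Septin3 fell more than Xcr1 (the Xcr1 over Septin3 ratio rose by 1.52). The widest change was between Septin3 and Ly75, whose log2 ratio went from 1.18 to −8.48.

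**Figure D3:**
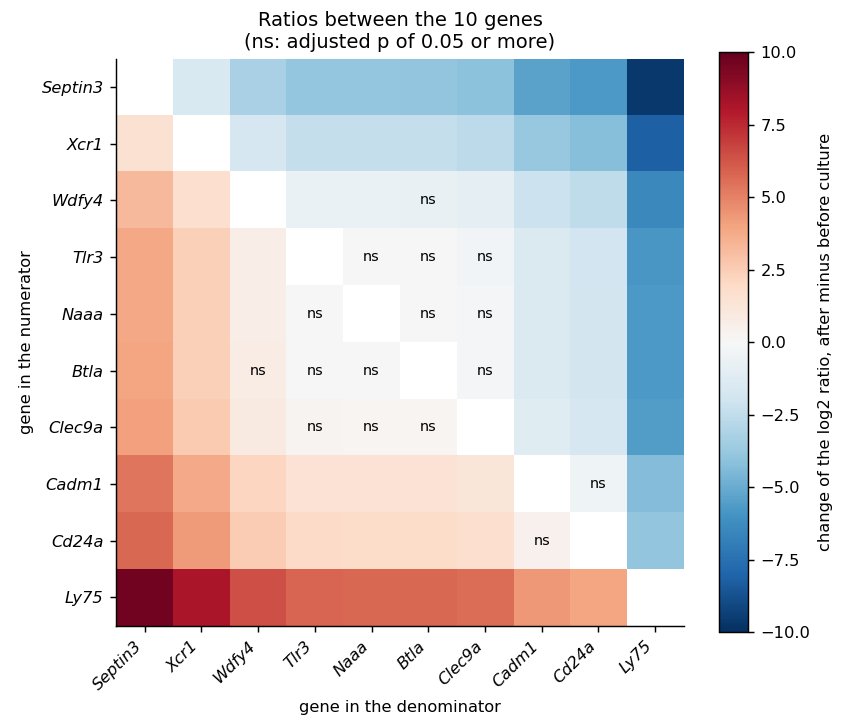
Change of the log2 ratio of each pair of genes, after minus before culture (colour), with genes ordered by their fold change; "ns" marks the 8 of 45 pairs at an adjusted p of 0.05 or more. Clec9a, Tlr3, Naaa and Btla form a pale block, and the Ly75 row is the darkest.

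Each gene was also set against Flt3 and Irf8, a growth factor receptor and a transcription factor that cDC1 carry. All 20 ratios differed between the groups (adjusted p = 0.0159, exact two-sided permutation test). That is the smallest p that 5 and 4 samples allow, and any ratio without overlap between the groups reaches it. The share of all genes whose ratio would do so was not computed. Flt3 itself rose (8170 ± 638 to 13082 ± 1988) and Irf8 fell (18457 ± 1783 to 8465 ± 404, SD, n = 5 and n = 4), so the ratios to Flt3 are the lower ones. Relative to Irf8 the log2 change was −6.10 for Septin3, −4.58 for Xcr1, −2.88 for Wdfy4, −0.76 for Cadm1, −0.36 for Cd24a and 3.57 for Ly75. Relative to Flt3 it was −2.15 for Cd24a and 1.78 for Ly75. Of 7 dendritic cell reference genes 4 rose and 3 fell, beside 34.2% and 34.6% of all tested genes. Batf3 (511 ± 95.4 to 746 ± 96.4), Id2 and Zbtb46 rose with Flt3, and Nfil3 and Itgax (15488 ± 606 to 12019 ± 958) fell with Irf8. Itgax encodes CD11c. Its fall did not pass under the GC and length adjustment (log2 fold change −0.07), and Zbtb46 did not pass when replicate 1 (limma adjusted p = 0.0575) or 3 (0.0534) after culture was left out.

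Other genes of the cDC1 signature followed the 9. Of 22 listed, 20 fell and 1 rose, with a median log2 fold change of −2.40. Of all tested genes 34.6% fell and 34.2% rose. Gpr33, an orphan receptor of the chemoattractant family, went from 495 ± 77.1 to 16.4 ± 7.27 (log2 fold change −4.92), Ifi205 from 4447 ± 398 to 243 ± 50.6 (−4.20), and Snx22, a sorting nexin, from 1312 ± 151 to 98.96 ± 15.4 (−3.72). Clnk, an adaptor of immune receptor signalling, went from 494 ± 55.6 to 37.1 ± 8.16 (−3.72). Cd36, a scavenger receptor also made by macrophages, rose from 8287 ± 1451 to 23420.5 ± 4202 (log2 fold change 1.50), and Dpp4 did not pass (3632 ± 265 to 4170 ± 595, limma adjusted p = 0.0945), but did when replicate 4 before (0.0482) or replicate 2 after culture (0.00825) was left out.

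Of 18 genes of the machinery that loads peptides on MHC class I, 10 rose and 8 did not pass, with a median log2 fold change of 0.25. Of all tested genes 34.2% rose. Psme1 (0.18), among the 10 that rose, had overlapping groups. It did not pass when replicate 1 (limma adjusted p = 0.123) or 2 (0.115) after culture was left out, nor under several other alternatives. Among the 8 that did not pass, the class I heavy chain gene H2-D1 moved with the processing. It fell when replicate 4 before culture was left out (−0.26) and with sample weights (−0.22). Under the GC and length adjustment it rose (0.29, limma adjusted p = 0.0166), and 14 of the 18 genes rose. With that adjustment 7094 of all 17797 genes fitted rose and 5046 fell. Psme2, a subunit of the proteasome activator PA28, went from 2233 ± 174 to 6641 ± 419 (log2 fold change 1.57), and Tapbpl, an editor of bound peptides, from 1082 ± 96.2 to 2148 ± 176 (0.99). B2m, the light chain of class I, went from 45493 ± 2850 to 88512 ± 6045 (0.96) and Tapbp, tapasin, from 12299 ± 671 to 19383 ± 1301 (0.66).

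Vesicle traffic and export to the cytosol moved both ways, with 7 of 19 genes higher, 4 lower and a median of 0.09, beside 34.2% of all tested genes higher and 34.6% lower. Without replicate 2 after culture 7 fell, with Vamp3 (−0.22), Sec61a1 (−0.25) and Derl1 (−0.23) passing as well, and with upper quartile scaling 2 fell. Over all 18202 tested genes 6257 and 5579 fell in these fits. Tfeb (−0.32), among the 4 lower, was called with overlapping groups. It did not pass with TMM (limma adjusted p = 0.0525) or upper quartile scaling (0.120), nor with several single samples left out. Rab43, a small GTPase with a known part in cross-presentation by cDC1, fell from 1171 ± 124 to 382 ± 44.0 (log2 fold change −1.62). Rab14 rose from 4517 ± 84.7 to 8252 ± 596 (0.87), Vcp, an ATPase that pulls proteins out of membranes, from 9225 ± 395 to 13985 ± 1228 (0.60), and the fusion protein gene Snap23 from 2520.2 ± 275 to 3646 ± 382 (0.53). Snap23 did not pass under the GC and length adjustment (0.07). Sec22b, a fusion protein that brings endoplasmic reticulum membrane to phagosomes, rose from 887 ± 40.7 to 1201 ± 64.9 (0.44), and did not pass under the same adjustment (0.16).

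The phagosome NADPH oxidase slows the breakdown of antigen in dendritic cells. Of its 6 genes 3 rose and 2 fell, beside 34.2% and 34.6% of all tested genes. Its membrane subunit Cybb went from 10391 ± 1247 to 28574 ± 5413 (log2 fold change 1.45) and the cytosolic Ncf1 from 6658 ± 847 to 16218 ± 1138 (1.29). Rac2 fell from 6147 ± 687 to 3572 ± 284 (−0.78). Cyba (0.49) was called with overlapping groups, and without replicate 2 after culture it did not pass (limma adjusted p = 0.0666). Monocytes, macrophages and neutrophils also make these subunits. Summed monocyte and macrophage markers went from 23817 to 43840 before to 9637 to 24540 after culture, with 4 of 7 lower, and the part of these cells in the oxidase values was not tested.

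Genes of the TLR3 pathway act in uptake of RNA, receptor folding and transport, and signalling. Of 12 tested, 8 rose and 4 did not pass, with a median of 0.53, beside 34.2% of all tested genes higher. Of the 4, Irf7 (log2 fold change −0.9998) and Unc93b1 (−0.40) fell when replicate 2 after culture was left out. Rftn1, a lipid raft protein that helps take up double-stranded RNA, went from 2620 ± 140 to 8511 ± 448 (log2 fold change 1.70), the kinase gene Ikbke from 867 ± 96.2 to 1840 ± 374 (1.07), and the adaptors Traf3 (2266 ± 158 to 4307 ± 182, 0.93) and Traf6 (2567 ± 123 to 4716 ± 328, 0.88) rose as well. Ticam1, the adaptor that binds TLR3 itself, went from 1141 ± 103 to 1416 ± 144 (0.31). The interferon genes Ifnb1, Ifnl2 and Ifnl3 were not tested, with means of at most 0.605 in either group.

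Among 8 ligands and partners, 4 fell and 1 rose, but 2 fell and 3 rose under the GC and length adjustment. Of all tested genes 34.6% fell and 34.2% rose without that adjustment. With it, 5046 of 17797 genes fell and 7094 rose. Xcl1, the ligand of XCR1, went from 70.2 ± 14.0 to 24.6 ± 1.65 (log2 fold change −1.46). It is a product of NK and T cells, and 5 of 6 NK markers fell, with summed levels of 922 to 2041 before and 192 to 439 after culture, while the 8 T cell markers summed to 6634 to 8287 before and 5752 to 7829 after. The part of those cells in the fall of Xcl1 was not tested. Nectin3, which can bind CADM1, fell (225 ± 32.4 to 93.4 ± 33.3), as did Siglecg, the receptor for CD24 (1402 ± 167 to 941 ± 171), and the phosphatase gene Ptpn11 (3716 ± 167 to 2779 ± 361). Under the GC and length adjustment neither Siglecg (log2 fold change −0.24) nor Ptpn11 (−0.04) passed.

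Tnfrsf14, the ligand of BTLA, rose from 381 ± 64.8 to 495 ± 51.1 (0.39) without overlap, and did not pass when replicate 1 (limma adjusted p = 0.0632) or 2 (0.0552) after culture was left out. Syk, the kinase that CLEC9A signals through, stood at 10849 ± 1149 before and 11519 ± 1783 after culture and did not pass (limma adjusted p = 0.547), but passed under the GC and length adjustment (log2 fold change 0.58). Ptpn6 (5388 ± 610 to 4997 ± 567) and Crtam (94.8 ± 22.0 to 76.0 ± 22.9) did not pass either. Under the GC and length adjustment Ptpn6 rose (0.30, limma adjusted p = 0.00745). Crtam passed without replicate 3 after culture (log2 fold change −0.51, limma adjusted p = 0.0435).

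**Figure D4:**
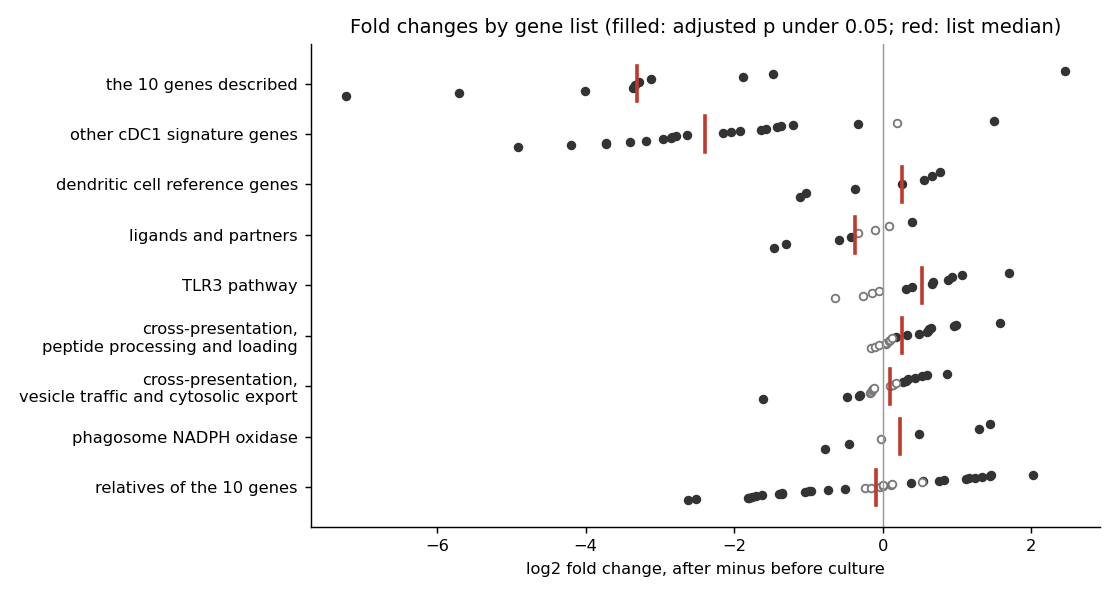
Log2 fold changes, after minus before culture, of the tested genes of each list (filled points pass an adjusted p of 0.05, open points do not, red lines are list medians). The 10 genes (median −3.31) and the other cDC1 signature genes (−2.40) lie to the left of 0, and the peptide loading (0.25) and TLR3 pathway lists (0.53) to the right.

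Relatives by sequence family moved both ways. Of 10 other septin genes tested, 3 rose and 4 fell, between −1.81 (Septin4) and 1.24 (Septin8) on the log2 scale. Of all tested genes 34.2% rose and 34.6% fell. Septin9, of the same subgroup as Septin3, stood at 10044 ± 929 before and 9017 ± 929 after culture (limma adjusted p = 0.153), a difference that was upward (0.36, limma adjusted p = 9.17e-04) under the GC and length adjustment. Septin9 fell when replicate 4 before culture was left out (−0.22, limma adjusted p = 0.0281). Septin6 fell from 4393 ± 307 to 1296 ± 46.9 (log2 fold change −1.76) and Septin2 rose from 4295 ± 284 to 7597 ± 452 (0.82). Of 5 relatives of Wdfy4, 2 fell, Lrba (6148 ± 640 to 2390 ± 211, −1.36) and Nbea (337 ± 78.1 to 108 ± 23.6, −1.63). Wdfy3, an autophagy adaptor, did not pass (6692 ± 385 to 5792 ± 1265, limma adjusted p = 0.112), and its difference of −0.23 was 0.23 under that adjustment. Without replicate 2 after culture Wdfy3 fell (−0.35, limma adjusted p = 0.0147).

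Within a group the same samples were high or low for several of the 10 genes. Before culture, replicate 4 had the highest value for 6 of the 10 and replicate 3 the lowest for 6. The same replicates had the lowest (23817) and highest (43840) summed monocyte and macrophage markers of that group. After culture, Wdfy4, Tlr3 and Naaa were highest in replicate 2 and lowest in replicate 3, and Ly75 and Btla were highest in replicate 3 and lowest in replicate 2. Replicate 2 had the highest (24540) and replicate 3 the lowest (9637) summed monocyte and macrophage markers after culture. Summed cDC2 markers had their lowest (19651, 16602) and highest (27255.5, 29714) values in the same replicates of the 2 groups. Summed epithelial (35654, 7229), NK cell (2041, 439) and T cell markers (8287, 7829) were highest in replicate 4 before and replicate 3 after culture. The part of these cells in the differences between replicates was not tested. All 10 calls held when any 1 of the 9 samples was left out.

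**Figure D5:**
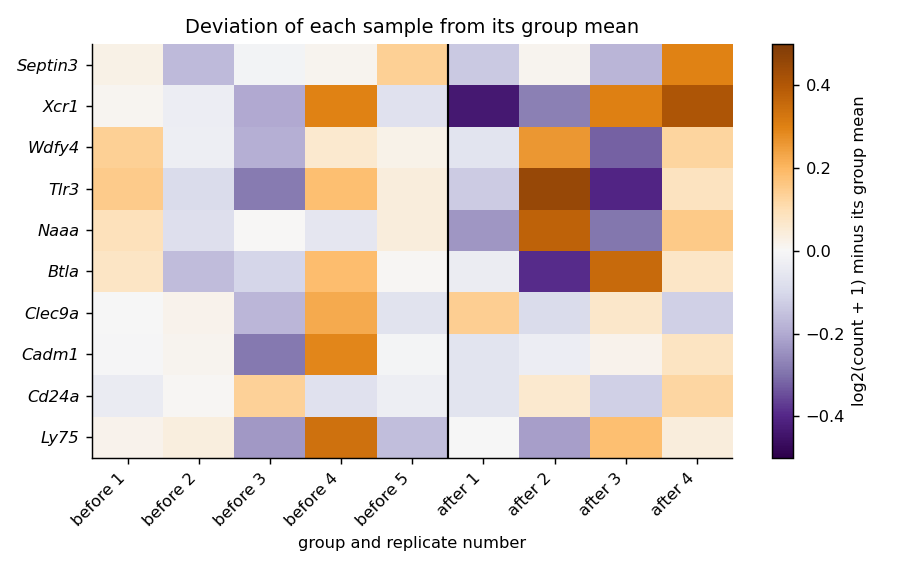
Deviation of each sample from its group mean on the log2(count + 1) scale for the 10 genes (orange above, purple below the mean). Replicate 4 before culture is above its mean for most genes, and Wdfy4, Tlr3 and Naaa oppose Btla and Ly75 in replicates 2 and 3 after culture.

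The genes whose levels over the 9 samples were most like the mean of the 10 were found among the 11776 others with a mean of at least 100. They were Arsb (Pearson r = 0.9994), a lysosomal sulfatase, Ppt1 (0.999), a lysosomal thioesterase, Srgap3, Septin6 and Tasl2. With a gap this wide between the groups r is set mainly by that gap, and 313 genes reached 0.99. Arsb went from 4620 ± 502 to 360 ± 35.6 and Ppt1 from 10573 ± 1189 to 1691 ± 149 (SD, n = 5 and n = 4).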

How the data were processed

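RNA of 5 samples before and 4 after culture was sequenced by a company, per the labels' protocols. The authors deposited 1 table holding a signal per gene, the read count divided by a factor of its sample. The submitters' processing notes name DESeq2 and GRCm38, and the aligner, counter, annotation and strandedness are not given in the sources used here. All values (100%) were whole multiples (within 0.001 read) of the smallest step in their column, which gave back whole reads. Rows without a symbol (3782) took 6.43 to 10.9% of reads before and 3.87 to 5.46% after culture and were left out.

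Genes with a symbol and a mean of 10 or more were tested with limma 3.58.1 (R 4.3.3) on log2(value + 1), with group alone as term, a mean-variance trend and two-sided p, adjusted by Benjamini-Hochberg over 18202 genes, with a threshold of 0.05. Log2 fold changes are on that scale, which understates changes of low genes, and a fold is the ratio of mean normalized counts. A floor of 3 reads was used, and it covers counting error only.

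The 10 genes and the lists were chosen with earlier results of these data known. Named are the 10, up to 4 genes of each list with the largest change past the threshold and a mean of at least 100, partners, reference genes, relatives and the 5 genes most like the 10. Sec22b, Ticam1, Cd36 and Dpp4 fall outside this rule and were chosen after their values were seen. So were Itgae, H2-D1, Vamp3, Sec61a1, Derl1, Irf7, Unc93b1 and the marker genes Mmp8, Ly6g and Sirpa. Genes named in the closing section for a call that changed were also chosen in this way. Positions and lengths are from GENCODE M21 (GRCm38).

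Alternatives were pseudocounts of 0.5 and 8, no filter, a minimum mean of 50, TMM, upper quartile and quantile scaling, sample weights, edgeR 4.0.16 and DESeq2 1.42.0 on recovered reads, replicate blocks (8 samples each), a spline correction for GC content and length, and leaving out each sample. The limma fit was also run on simulated counts in which far fewer genes changed than were called here. That setting does not cover data in which most genes changed, so nothing is drawn from it. Tables, exact tests and plots were made with SciPy 1.17.1, pandas 2.3.3, NumPy 2.4.6 and matplotlib 3.10.9 in Python 3.11.15.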

Additional observations from a re-analysis of the deposited data

Results flagged for a closer look

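In 6 of 142 groups of samples checked (71 genes of the set and the lists, before and after culture), 1 sample lay further from the rest than Dixon's 95% critical value allows. Chance flags about 1 in 20 such groups, and none of the 6 concerns the 10 genes themselves. Before culture, replicate 4 was low for Batf3 (347, the other 4 samples 521 to 590), Tapbp (11136, others 12313 to 12757), Cyba (3827, others 6084 to 6842) and Septin9 (8429, others 10135 to 10671). After culture, replicate 3 was high for Clec1b (379, the other 3 samples 265 to 284) and replicate 2 was high for Mrc1 (6348, others 4375 to 4531).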

How the results depend on the processing

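All 10 genes kept their direction and their call under all 22 alternatives, 9 of which left out 1 sample. Between 9925 (a minimum mean of 50) and 14150 (no filter) genes were called over all, against 12524, and leaving out 1 sample gave 11766 to 12691. Of 45 pairs, 37 or 38 differed under each alternative run. Among 71 genes checked singly, 5 values changed sign: Syk was −9.28e-04 without replicate 2 after culture (and at most 0.19 with another sample left out), Ptpn6 was 6.14e-04 with upper quartile scaling and 0.30 under the GC and length adjustment, and with that adjustment Wdfy3 was 0.23 and Septin9 0.36. The cause was not tested. A further 13 values lost a call, in Siglecg, Ptpn11, Itgax, Snap23, Cadm4, Asah1 and Septin7 under that adjustment and in Tnfrsf14, Zbtb46 and Cyba under others. Crtam, Syk, Wdfy3 and Septin9 gained 6 calls, of Wdfy3 and Septin9 also with sample weights. The median log2 fold change of all genes was 0.114 with upper quartile scaling. DESeq2 gave no adjusted p for 3 genes.

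Replicate numbers in the titles and in the library names differ. Deviations of same-numbered samples correlated at 0.0807, 0.0796, −0.213 and −0.0403 (titles) or 0.0807, 0.247, 0.349 and 0.0447 (library names), so neither was taken as pairing. With a replicate block on title numbers 11656 genes were called, 10 of the 10 among them, and on library-name numbers 12865 and again all 10. Over the lists, 93 genes were called, 89 with the block on title numbers (Psme1, Tfeb, Fkbp1b and Zbtb46 lost) and 99 with that on library-name numbers (Rab32, Sec61a1, Derl1, Irf7, Unc93b1 and Dpp4 gained). By library names every sample with a partner correlated best with it except replicate 5 before culture, a hint from the data and not from the design. Septin3 and Xcr1 had the fewest reads of the 10 genes after culture, with 64 to 107 and 92 to 193 per sample.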

Other observations

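Relatives of the receptors were followed as well. Of the endosomal and surface Toll-like receptors beside Tlr3, Tlr7 rose from 724 ± 113 to 1986 ± 430 (log2 fold change 1.44), Tlr8 from 946 ± 94.8 to 2647 ± 633 (1.46) and Tlr4 from 962 ± 74.3 to 2205 ± 625 (1.16), while Tlr9 fell from 3183 ± 265 to 1603 ± 118 (−0.99; SD, n = 5 and n = 4). Among lectins near Clec9a, Clec7a, the receptor for fungal glucans, rose from 13830.5 ± 1349 to 35023 ± 6028 (1.33), and Clec12a (1801 ± 98.7 to 875 ± 81.7, −1.04) and Clec1a (1085 ± 259 to 173 ± 13.0, −2.62) fell. Cx3cr1, the chemokine receptor gene next of kin to Xcr1, fell from 2525 ± 500 to 719 ± 98.8 (−1.80). Beside Ly75, the mannose receptor genes Mrc1 (6983 ± 772 to 4931 ± 947, −0.51) and Mrc2 (513 ± 78.4 to 198 ± 10.7, −1.35) fell. Pdcd1, an inhibitory receptor gene like Btla, rose from 282 ± 32.7 to 1142 ± 123 (2.02), as did Cd160, which shares the ligand of BTLA (69.4 ± 5.79 to 156 ± 46.9, 1.12). Macrophages and T cells also make several of these, and the part of such cells in the values was not tested.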
